A study of Mus musculus with 11 samples.

Results

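The genes described here encode proteins of the junctions between endothelial cells, the cells that line blood and lymph vessels. They are Pecam1, Cdh5, Cldn5, Esam, F11r, Jam2, Jam3 and Cd99l2, taken as a list by symbol. All 8 were found among the 24411 genes of the files, and all 8 were among the 14588 genes that passed the filter on low counts. Total RNA was sequenced from mouse back skin in which dermatitis had been induced with MC903, a vitamin D analog used to model atopic dermatitis. In 4 samples the host had received tdTomato-positive marrow cells and in 7 samples tdTomato-negative marrow cells. The donors were Pdgfra-Cre;tdTomato mice, so the red reporter marks cells in whose ancestry the Pdgfra driver was active, and femoral marrow was sorted on it. All 11 hosts were of the Tg(act-EGFP)Y01Osb strain, with a label age of 16-18 and no unit. All were irradiated with 10 Gy, transplanted through the tail vein, left 6 weeks to recover and treated 6 times with MC903, and skin was taken on day 14. Both groups therefore carried irradiation, transplantation and dermatitis, and skin without them was not analysed here. Whether each sample is a separate mouse is not stated in the labels, and a p-value here measures only how these samples spread. Marrow grafts replace the blood-forming cells, whereas the vessel lining of the skin is largely that of the host.

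Leukocytes leave the blood by crawling through the seams between endothelial cells or through the cells themselves, and the proteins of these seams hold the barrier closed and guide the passage. VE-cadherin (Cdh5) ties neighbouring cells together at adherens junctions, claudin-5 (Cldn5) seals tight junctions, and PECAM-1 and the CD99 family take part in the passage of leukocytes. The junctional adhesion molecules JAM-A (F11r), JAM-B (Jam2) and JAM-C (Jam3) and the related ESAM are immunoglobulin proteins near tight junctions. Their range of cells differs. Cdh5 and Cldn5 mark endothelium in skin, Pecam1 is also made by platelets and leukocytes, and F11r is also made by epithelia, which in skin include epidermis and hair follicle.

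The total of expected counts lay between 7190752 and 9749842 per sample. With edgeR's quasi-likelihood test over all genes, 0 genes passed a Benjamini-Hochberg adjusted p of 0.05 (0.0% of those tested), and 2448 had an unadjusted p under 0.05. DESeq2 called 83 genes and limma-voom 0. The samples differed in hair follicle content. A hair score, the mean z-score of log2 counts scaled to library size (CPM) over 30 hair genes, was above 0 in positive replicate 4 (0.48) and in negative replicates 2 to 6 (0.73 to 1.14). It was below 0 in positive replicates 1 to 3 (-1.29 to -0.50) and in negative replicates 1 and 7 (-0.47 and -1.56). Samples above 0 are called hair-rich and those below 0 hair-poor. All 11 keratinocyte markers were found, with summed levels of 22870 to 36780 TPM, a measure scaled by transcript length and library size, in positive and 14420 to 37570 TPM in negative samples. All 20 endothelial reference genes were found as well, with summed levels of 226 to 299 TPM and 155 to 289 TPM in the same order.

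Per length, the 8 genes spanned a range of levels, some clearly ordered and some not. Over all 11 samples F11r stood highest at 61.4 ± 8.95 TPM (SD, n = 11), followed by Pecam1 at 38.3 ± 11.2 TPM and Cdh5 at 20.3 ± 4.37 TPM. Cd99l2 stood at 18.7 ± 5.20 TPM, Esam at 13.6 ± 4.23 TPM, Cldn5 at 8.40 ± 2.31 TPM, Jam2 at 7.77 ± 2.43 TPM and Jam3 at 4.88 ± 1.44 TPM. F11r exceeded Pecam1 in 10 of 11 samples, the exception being positive replicate 3. Pecam1 exceeded Cdh5, and Jam2 exceeded Jam3, in 11 of 11 samples. Esam exceeded Cldn5 in 10 of 11 samples, and Cldn5 exceeded Jam2 in 7 of 11. The place of Cd99l2 differed with hair content, by the hair score above. It exceeded Cdh5 in 5 of 5 hair-rich negative samples, in 0 of 5 hair-poor samples and not in the hair-rich positive sample. It exceeded Esam in 6 of 6 hair-rich and 0 of 5 hair-poor samples.

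Fitted log2 fold changes, given as positive minus negative, lay above 0 for 6 of the 8 genes and below 0 for 2, where 48.6% and 51.4% of all tested genes did. The 6 were Pecam1, Cdh5, Cldn5, Esam, Jam2 and Jam3, and the 2 were F11r and Cd99l2. The median over the 8 was 0.39, against -0.0071 over all tested genes. None passed the adjusted threshold of edgeR. At an unadjusted p under 0.05 there were 4 of 8 above 0, where 7.05% of all tested genes were, and 1 of 8 below 0, where 9.73% were. The groups overlapped in all 8, while in 0.61% of all tested genes every positive sample lay above every negative one and in 1.06% below. In each of the 6 genes all 4 positive samples lay above the median CPM of the negative group, as in 15.9% of all tested genes. In F11r and Cd99l2 all 4 lay below it, as in 20.7%. Of the 7 negative samples 5 were hair-rich. In bulk tissue, fewer cells of a type and less RNA per cell cannot be told apart.

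**Figure D1:**
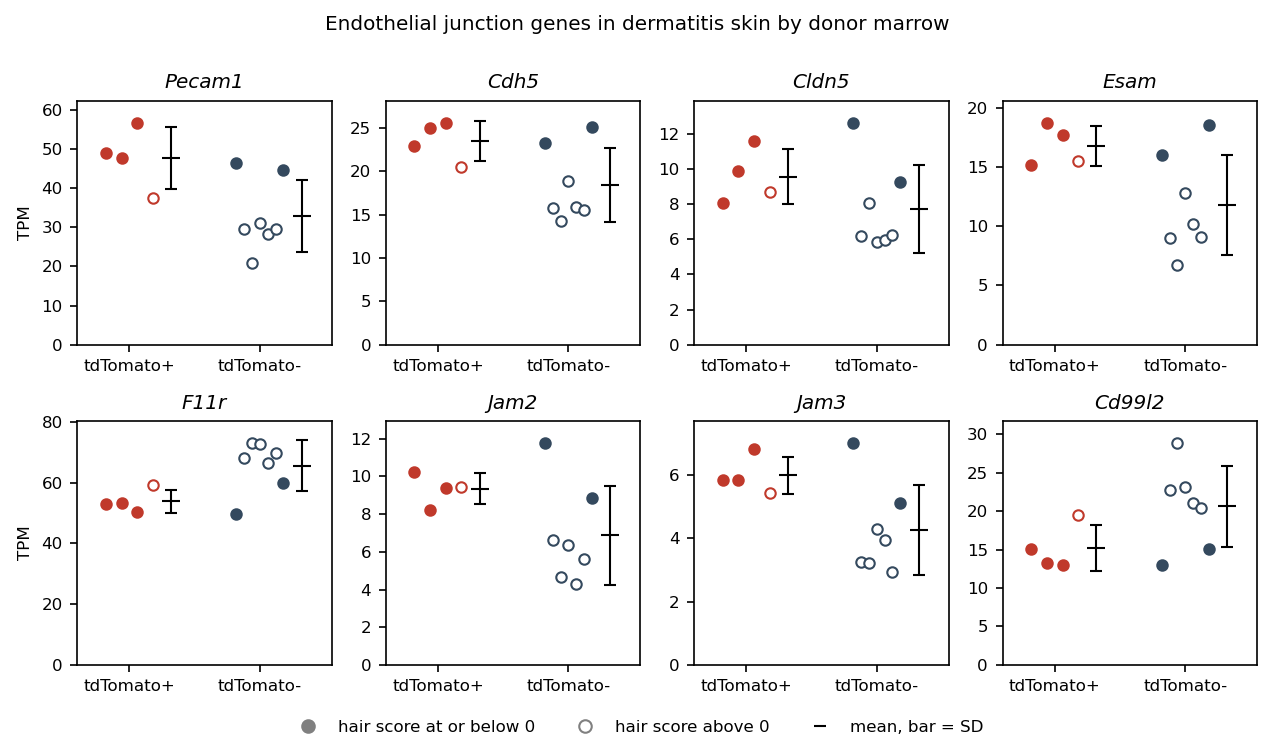
TPM of each junction gene (y axis, from 0) in every sample, with tdTomato-positive samples (red, n = 4) left of tdTomato-negative samples (dark blue, n = 7). Filled points are hair-poor and open points hair-rich samples, and the black bar is the mean with its SD. In all 8 panels the filled dark points, negative replicates 1 and 7, lie among or close to the red points, and the open dark points lie apart from most of them.

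Pecam1 encodes an adhesion protein that binds its own kind across the junction. It had 49.0, 47.8, 56.6 and 37.4 TPM in positive replicates 1 to 4, against 20.9, 29.6 and 46.5 TPM as the lowest, median and highest of the 7 negative samples. The first 3 positive replicates lay above all negative samples, and replicate 4 lay within their range. By CPM it averaged 94.0 ± 15.4 (SD, n = 4) in positive and 65.0 ± 15.2 (SD, n = 7) in negative skin. The log2 fold change was 0.53 ± 0.17 (SE), a ratio of 1.45, with an unadjusted p of 0.00935 and an edgeR adjusted p of 0.248. Among the 8 genes this was the smallest p. Pecam1 lies on chromosome 11 from 106654213 to 106715281 (RefSeq on GRCm38.p6, as for all positions below).

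Cdh5 encodes VE-cadherin, the cadherin of endothelial adherens junctions. It had 23.0, 25.0, 25.6 and 20.5 TPM in positive replicates 1 to 4, against 14.3, 15.8 and 25.1 TPM as the lowest, median and highest negative values. By CPM, 2 of 4 positive samples lay above all negative samples. The fit gave a log2 fold change of 0.34 ± 0.13 (SE), a ratio of 1.27, and an edgeR adjusted p of 0.256. Relative to its level it varied least among the 6 genes above 0, with a highest CPM 1.67 times the lowest over the 11 samples, against 2.39 times for Pecam1. Cdh5 lies on chromosome 8 from 104101613 to 104144504.

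Cldn5 encodes claudin-5, the chief claudin of endothelial tight junctions. It had 8.09, 9.86, 11.6 and 8.69 TPM in positive replicates 1 to 4. The 7 negative samples ran from 5.84 through a median of 6.24 to 12.6 TPM. The highest value of all belonged to negative replicate 1, and the groups overlapped throughout. Its log2 fold change of 0.29 ± 0.21 (SE) was the smallest of the 8 in size and close to its error, with an edgeR adjusted p of 0.484. Few reads stood behind it, 35 to 83 expected counts per sample. A count of 35 has a 95% exact Poisson interval of 24.4 to 48.7, which covers counting error only. Esam, which encodes an endothelial adhesion molecule that platelets also carry, had 15.2, 18.7, 17.7 and 15.5 TPM in positive replicates 1 to 4. Its negative samples had a lowest value of 6.75, a median of 10.2 and a highest value of 18.5 TPM. Positive replicate 2 lay just above that range and the other 3 in its upper part. The fit gave 0.51 ± 0.21 (SE) on the log2 scale, an unadjusted p of 0.0322 and an edgeR adjusted p of 0.269. Cldn5 lies on chromosome 16 from 18776847 to 18778262, and Esam on chromosome 9 from 37528089 to 37538319.

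The fitted fold changes of the 3 JAM genes did not share a sign, under any scaling tried. Jam2 (JAM-B), found on endothelium of venules and lymph vessels, had 10.2, 8.24, 9.41 and 9.45 TPM in positive replicates 1 to 4, against 4.27, 6.34 and 11.8 TPM as the lowest, median and highest negative values. Its positive samples lay close together, inside the spread of the negative ones. The fit gave 0.44 ± 0.21 (SE) on the log2 scale and an edgeR adjusted p of 0.319. Jam3 (JAM-C), a binding partner of JAM-B, had 5.83, 5.85, 6.80 and 5.44 TPM in positive replicates 1 to 4. In negative skin its lowest, median and highest values were 2.94, 3.94 and 6.99 TPM. The positive samples again lay inside the negative range, in its upper part. The log2 fold change was 0.48 ± 0.20 (SE), with an unadjusted p of 0.0339 and an edgeR adjusted p of 0.273. Counts were low, 27 to 71 per sample, and 27 has a 95% exact Poisson interval of 17.8 to 39.3. Jam2 lies on chromosome 16 from 84774123 to 84826380, and Jam3 on chromosome 9 from 27097384 to 27155421.

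F11r (JAM-A), the member that epithelia also make, had 53.0, 53.2, 50.2 and 59.3 TPM in positive replicates 1 to 4, against 49.8, 68.0 and 72.9 TPM as the lowest, median and highest negative values. All positive samples lay in the lower part of the negative range. By CPM it averaged 78.0 ± 5.95 (SD, n = 4) in positive and 96.9 ± 15.4 (SD, n = 7) in negative skin. The log2 fold change was -0.31 ± 0.12 (SE), a ratio of 0.805, with an unadjusted p of 0.0270 and an edgeR adjusted p of 0.264. F11r lies on chromosome 1 from 171437561 to 171464593. Cd99l2, a relative of CD99 that in mouse takes part in leukocyte passage, had 15.1, 13.3, 13.0 and 19.5 TPM in positive replicates 1 to 4. Its negative samples had a lowest value of 13.0, a median of 21.1 and a highest value of 28.8 TPM. The groups overlapped, and the hair-rich positive replicate 4 was the highest of its group in both F11r and Cd99l2. The log2 fold change of Cd99l2 was -0.48 ± 0.22 (SE), with an unadjusted p of 0.0507 and an edgeR adjusted p of 0.299. It lies on chromosome X from 71420060 to 71492866. The genes themselves are not specific to vessels, and a lower level in whole skin does not say in which cells the transcripts were fewer.

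Upstream sequences are shown for Cldn5 and F11r, a pair of tight junction genes whose fold changes had opposite signs and whose known range of cells differs. Each is the 250 bases before the RefSeq start on GRCm38.p6, plus strand, 5′ to 3′. Capitals mark the 4 letters GGAA, the core of sites bound by ETS factors, which act widely in endothelium, or TTCC, the same core on the other strand.
Cldn5, chr16:18776597-18776846: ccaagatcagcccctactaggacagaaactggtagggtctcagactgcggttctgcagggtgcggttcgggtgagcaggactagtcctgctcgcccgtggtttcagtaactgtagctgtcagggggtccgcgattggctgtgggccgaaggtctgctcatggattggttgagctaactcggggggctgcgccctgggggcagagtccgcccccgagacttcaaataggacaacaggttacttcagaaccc
F11r, chr1:171437311-171437560: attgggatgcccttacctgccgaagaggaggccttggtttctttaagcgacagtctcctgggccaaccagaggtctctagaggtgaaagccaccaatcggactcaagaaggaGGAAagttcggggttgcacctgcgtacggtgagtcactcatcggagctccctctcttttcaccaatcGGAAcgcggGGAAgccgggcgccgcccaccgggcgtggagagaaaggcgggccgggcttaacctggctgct
GGAA on either strand was counted 0 times before Cldn5 and 3 times before F11r. Over the 32851 promoters listed by RefSeq, 93.5% held it at least once, with a median of 3 in the same 250 bases. The 2 sequences were alike in G and C content, 59.6% for Cldn5 and 60.0% for F11r, against a median of 52.4% over all promoters. They held 12 and 17 CG dinucleotides in that order. A match of these letters is not a binding site, and their absence here describes this window only.

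Samples of the same hair class were then set side by side. Hair content still differed within a class, as in the hair-poor negative replicates 1 and 7, with hair scores of -0.47 and -1.56. Among hair-poor samples, 3 positive and 2 negative, the levels of most of these genes lay in the same range. Cdh5 had 57.2 to 62.4 CPM in positive and 54.2 to 57.7 CPM in negative samples. Esam had 16.3 to 20.2 CPM and 16.2 to 18.5 CPM, in the same order. F11r had 69.7 to 79.6 CPM in positive and 69.8 to 82.6 CPM in negative samples, and Cd99l2 had 26.7 to 33.7 CPM and 27.0 to 30.9 CPM. The exception was Pecam1, with 97.6 to 107 CPM in positive against 82.8 to 88.4 CPM in negative hair-poor samples, which did not overlap. In 8.23% of all tested genes every hair-poor positive sample lay above both hair-poor negative samples. This was not particular to Pecam1. Some of the 20 endothelial reference genes did not overlap either, such as Kdr with 40.2 to 46.1 CPM against 31.65 to 38.8 CPM. Others overlapped, such as Erg with 9.845 to 11.6 CPM in positive and 7.31 to 10.6 CPM in negative hair-poor samples. A test restricted to these 5 samples, chosen after seeing the data, gave Pecam1 a log2 fold change of 0.26 ± 0.10 (SE) with an unadjusted p of 0.0459 and an edgeR adjusted p of 0.967. In that test 1.39% of all genes had an unadjusted p under 0.05 above 0. It gave the other 7 genes values of -0.08 to 0.10.

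Among hair-rich samples there was 1 positive, so no spread can be given for that group. Positive replicate 4 lay above the 5 hair-rich negative samples for Pecam1, with 71.7 CPM against 44.7 to 61.3 CPM. The same held for Cdh5, with 48.2 CPM against 37.3 to 44.7 CPM, and for Esam, Jam2 and Jam3. For Jam2 it had 27.2 CPM, against 13.1 to 20.2 CPM. It lay below them for F11r, with 83.7 CPM against 100.1 to 115 CPM, and for Cd99l2, with 40.8 CPM against 46.5 to 67.6 CPM. For Cldn5 it lay within them, at 6.48 CPM against 4.37 to 6.74 CPM. Over all tested genes, this sample lay above all 5 in 22.8% and below all 5 in 25.1%. The hair content of this sample was not equal to theirs: its hair score of 0.48 was below their 0.73 to 1.14, and its endothelial score of -0.06 was above their -1.24 to -0.45.

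When the hair score entered the fit over all genes as a covariate, the fold changes of all 8 genes were nearer to 0. Pecam1 had 0.27 ± 0.11 (SE) with an unadjusted p of 0.0287 and an edgeR adjusted p of 0.631, where 3.21% of all genes had an unadjusted p under 0.05 above 0. Cdh5 had 0.14 ± 0.07 and Esam 0.23 ± 0.14. Jam2 and Jam3 had 0.25 ± 0.20 and 0.27 ± 0.19, and Cldn5 had 0.08 ± 0.21. F11r and Cd99l2 had -0.14 ± 0.10 and -0.11 ± 0.14. In this fit 7 of the 8 had an unadjusted p of 0.0765 or more. With hair class as a factor in place of the score, the values ranged from -0.13 for F11r to 0.28 for Pecam1 and Esam. Quality-weighted limma-voom, with no hair term, called all 8 genes, with adjusted p of 0.0211 to 0.0450. It called 14.3% of all tested genes in either direction. Among its 11 sample weights the lowest were those of negative replicates 1 and 7, at 0.450 and 0.461, which are the hair-poor samples of that group.

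**Figure D2:**
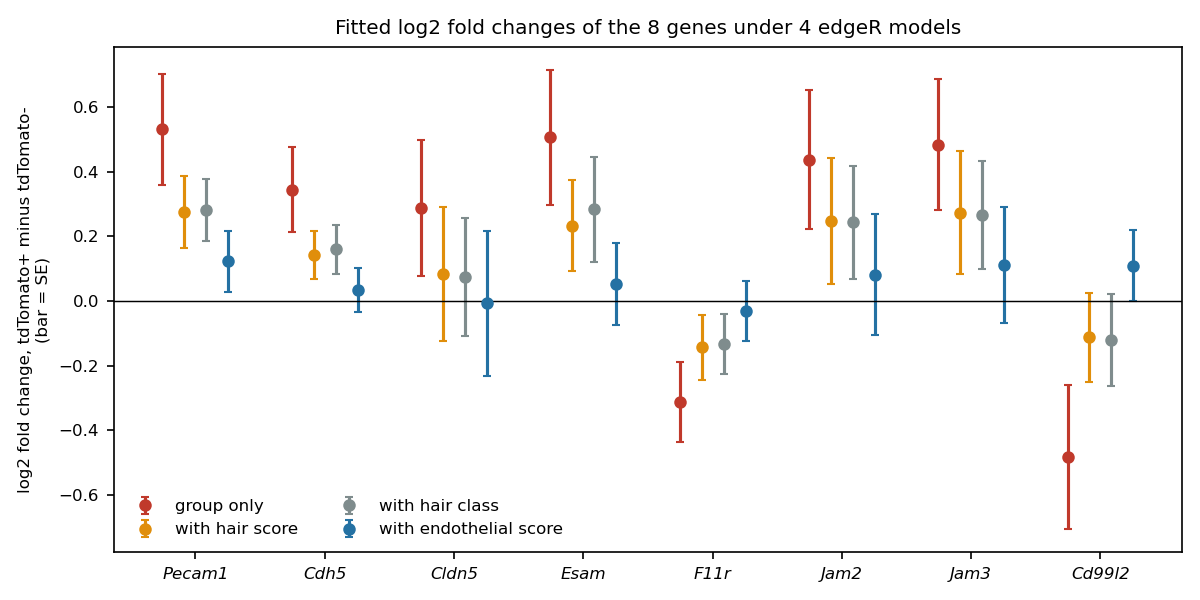
Fitted log2 fold change with its SE (y axis, tdTomato-positive minus tdTomato-negative) of each junction gene in 4 edgeR fits over all genes. In all 8 genes the points with hair score, hair class and endothelial score (blue) lie nearer to 0 than those with group only (red). For Pecam1 the values are 0.53 with group only, then 0.27, 0.28 and 0.12 in that order. Cldn5 and Cd99l2 change sign with the endothelial score.

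Vessel content was set beside these values with 20 endothelial reference genes that are not among the 8, such as Kdr and Flt1, the receptors for VEGF. All 20 lay above 0 on the log2 fold change scale (median 0.35), where 48.6% of all tested genes did. An unadjusted p under 0.05 above 0 was found for 9 of them and for 7.05% of all tested genes. Their score was 0.73 to 1.04 in hair-poor and -0.06 in hair-rich positive samples, against 0.63 to 0.79 in hair-poor and -1.24 to -0.45 in hair-rich negative samples. Relative to the mean log2 CPM of these 20 genes, Cdh5 held the narrowest range. It stood 1.52 to 1.60 above that mean in the 4 positive and 1.49 to 1.73 above it in the 7 negative samples. Pecam1 stood 2.16 to 2.39 above it in positive and 1.99 to 2.23 above it in negative samples, a difference of means of 0.15. Esam stood at -0.25 to 0.0043 in positive and -0.52 to -0.11 in negative samples. F11r spread far more, from 1.77 to 2.39 in positive and from 1.85 to 3.34 in negative samples, as did Cd99l2, from 0.39 to 1.36 and from 0.49 to 2.58.

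When the endothelial score was the covariate, the 8 genes had log2 fold changes between -0.03 and 0.12, none with an unadjusted p under 0.05. That score was above 0 in every hair-poor sample and below 0 in every hair-rich sample. Vessel content and hair content therefore cannot be told apart here. Pecam1 had 0.12 ± 0.09 (SE), with an unadjusted p of 0.214 and an edgeR adjusted p of 0.789. Cdh5 had 0.03 ± 0.07 and Esam 0.05 ± 0.13. Cldn5 and Cd99l2 changed sign in this fit, to -0.0072 ± 0.23 and 0.11 ± 0.11. In the same fit 2.47% of all genes had an unadjusted p under 0.05 above 0 and 3.55% below.

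**Figure D3:**
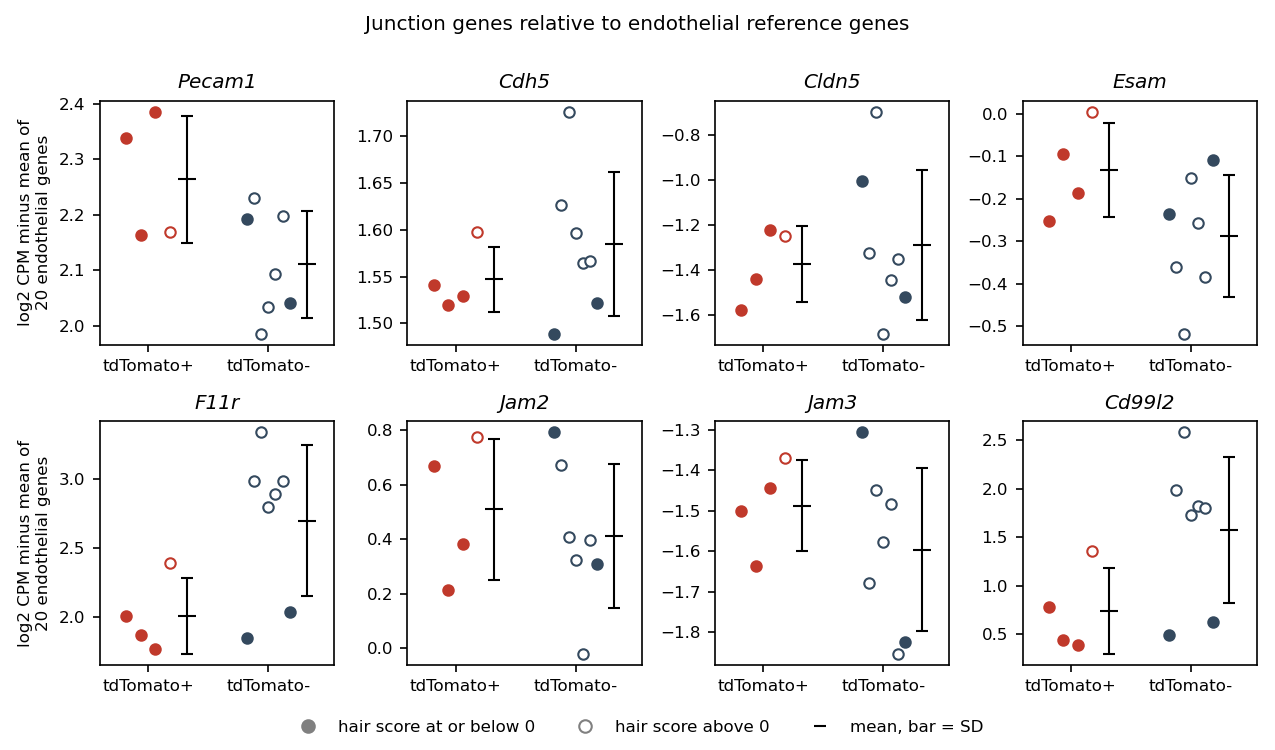
Log2 CPM of each junction gene minus the mean log2 CPM of 20 endothelial reference genes (y axis, scaled to each gene and not from 0), tdTomato-positive samples (red, n = 4) left of tdTomato-negative samples (dark blue, n = 7). Filled points are hair-poor and open points hair-rich samples, and black bars are means with SD. Cdh5 stayed between 1.49 and 1.73 in all 11 samples, while F11r and Cd99l2 were highest in the open dark points.

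Markers of other cells that make some of these proteins also differed between samples. All 14 leukocyte markers lay above 0 on the log2 fold change scale (median 0.49), 8 of them with an unadjusted p under 0.05. Over all tested genes 48.6% lay above 0, and 7.05% had an unadjusted p under 0.05 above 0. The 14 markers had a summed level of 893 to 2180 TPM in positive and 750 to 1132 TPM in negative samples. Their score was 2.04 and 1.07 in positive replicates 1 and 2, -0.22 and -0.54 in positive replicates 3 and 4, and -1.02 to 0.28 in negative samples. With the leukocyte score as a covariate Pecam1 had 0.36 ± 0.18 (SE) on the log2 fold change scale, an unadjusted p of 0.0691 and an edgeR adjusted p of 0.936. This was not particular to Pecam1. All 8 genes were nearer to 0 in this fit than with group alone, such as Jam2 at 0.26 and Cd99l2 at -0.30. Of 12 platelet markers all 12 were found and 5 tested, 2 above and 3 below 0, with summed levels of 68.4 to 147 TPM and 49.1 to 89.4 TPM in positive and negative samples. Lymphatic and pericyte markers had medians of 0.23 and 0.34, with 5 of 7 tested members above 0 in each. All 9 fibroblast markers lay above 0 (median 0.42), 4 of them with an unadjusted p under 0.05, against the same 48.6% and 7.05% of all tested genes. Their summed level was 4403 to 7123 TPM in positive and 3502 to 9320 TPM in negative samples. All 8 skeletal muscle markers lay above 0 as well (median 0.40), with summed levels of 2459 to 4453 TPM in positive and 1429 to 4610 TPM in negative samples. No marker in any of these lists was at 0 in every sample. With the score of the 11 keratinocyte markers as a covariate, the fold changes of the 8 genes stayed near those with group alone. Pecam1 had 0.53, F11r -0.31 and Cd99l2 -0.48 in that fit. Beyond the covariate fits, the part of these cells in the values of the 8 genes was not tested.

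The junction genes were set in the wider machinery with a list of 35 partner genes, of which 33 were found and tested. Of these, 14 lay above 0 and 19 below on the log2 fold change scale (median -0.054), against 48.6% and 51.4% of all tested genes. The adjusted threshold was passed by 0. At an unadjusted p under 0.05 there were 4 of 33 above 0 and 5 of 33 below, against 7.05% and 9.73% of all tested genes. The 11 scaffolds that tie junctions to the cytoskeleton, such as catenins, all lay below 0, as did 51.4% of all tested genes. Their median was -0.20. These are also abundant in epidermis and hair follicle. The 12 regulators had a median of 0.06 and the 10 other junction proteins a median of 0.22.

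The partners with the smallest p above 0 were Mcam, Ptprb and Cdh2. Mcam (CD146), an adhesion molecule of endothelium and pericytes, had 54.6 to 57.8 CPM in positive and 44.9 to 51.5 CPM in negative samples, which did not overlap. Such separation upward was seen in 0.61% of all tested genes. The fit gave 0.24 ± 0.06 (SE) on the log2 scale and an edgeR adjusted p of 0.248. Ptprb (VE-PTP), the phosphatase bound to VE-cadherin, had 90.7 ± 7.32 CPM (SD, n = 4) in positive and 68.5 ± 13.3 CPM (SD, n = 7) in negative samples, with a log2 fold change of 0.40 ± 0.13 (SE). Cdh2 (N-cadherin), which joins endothelium to pericytes, had 0.58 ± 0.20 (SE) at low counts. Choosing by p favors such separation. Below 0, Mllt4 and Ccm2 were among those with the smallest p. Mllt4, the older symbol of afadin, had 271 to 322 CPM in hair-poor and 401 CPM in hair-rich positive samples, against 325 to 340 CPM in hair-poor and 450 to 553 CPM in hair-rich negative samples. Ccm2, part of the complex mutated in cerebral cavernous malformation, had 14.6 to 16.5 CPM and 16.6 CPM in positive samples, against 18.2 and 16.3 to 22.1 CPM in negative samples, hair-poor before hair-rich in each group. Its log2 fold change was -0.25 ± 0.09 (SE).

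**Figure D4:**
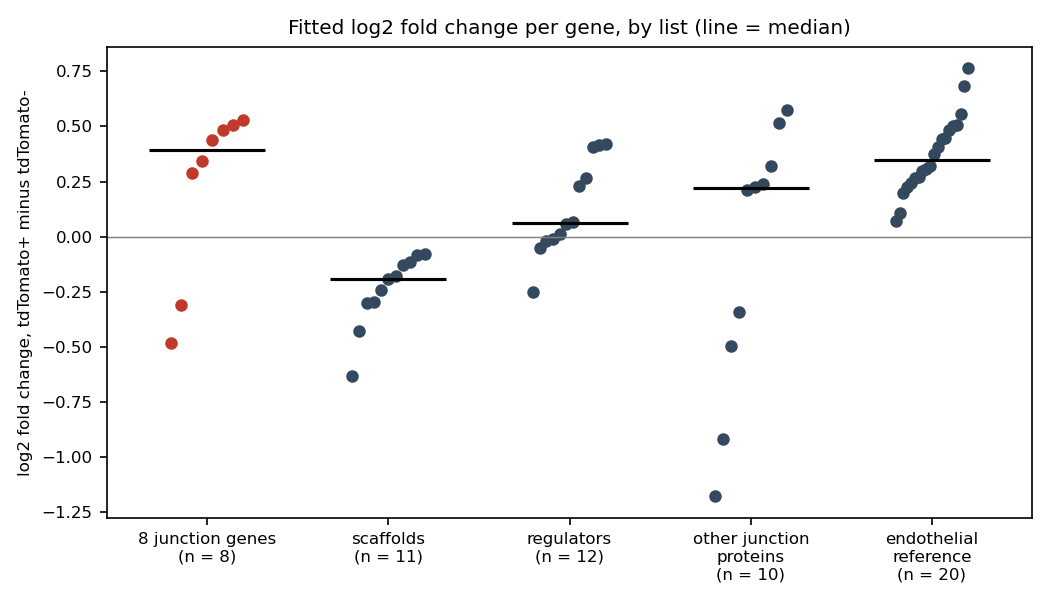
Fitted log2 fold change of each gene (y axis, tdTomato-positive minus tdTomato-negative), by list, with a line at the median. Among the 8 junction genes (red) 6 lie above 0 and F11r and Cd99l2 below, the 11 scaffolds all lie below 0 and the 20 endothelial reference genes all lie above 0.

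Genes with a like pattern over the 11 samples were sought by the root mean square difference of centred log2 CPM. Left out were the 8 genes themselves, genes with predicted or clone-type names, Y-linked genes, Xist and Tsix. Nearest to Pecam1 was Fbln1, a matrix fibulin that is among the fibroblast markers above, at 0.11. Sh3kbp1, an adaptor protein, followed at 0.12. Cd93, an endothelial receptor among the endothelial reference genes, stood at 0.13, where Pecam1 itself had an SD of 0.40. Nearest to Cdh5 were Cped1, Fkbp9 and Sh3pxd2b at 0.06 to 0.08, with an SD of 0.28 for Cdh5. Nearest to Cldn5 were Adamtsl5, Gsn and Dagla at 0.11 to 0.15, with an SD of 0.35. None of the genes named for Cdh5 or Cldn5 is among the endothelial reference genes. Within the 8, Pecam1 and Cdh5 were each nearest to the other, at 0.16, and so were F11r and Cd99l2, at 0.20. This is a description over samples that differ in hair content, not a test.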

How the data were processed

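RNA of 11 back skin samples was measured, 4 with tdTomato-positive and 7 with tdTomato-negative marrow. Libraries were depleted of ribosomal RNA, per the labels' protocols. The submitters' processing notes name RSEM and the GRCm38 build. Not given in the sources used here are the aligner, the versions and whether strand was used. The deposited expected counts are RSEM estimates per gene, not normalized, with 7.93% to 8.53% of genes per sample not whole within 0.005. The deposited TPM are scaled by effective length, per the file headers, and the deposited effective lengths (bases) served for an offset. Expected counts were rounded, filtered with filterByExpr (minimum count 10, minimum total 15), scaled with TMM and tested with edgeR 4.0.16 glmQLFit (legacy mode) and glmQLFTest on group alone (R 4.3.3), Benjamini-Hochberg adjusted over 14588 genes. Each SE is the size of the fold change over the root of its F value. Log2 CPM used a prior count of 2. The partner, marker and hair lists are by hand, with older symbols matched through RefSeq, and 2 of 168 symbols were not found in this way or by name. The members and lists were chosen with earlier results of these data known. Named partners are the 3 with the smallest p in each direction, of which 1 is not reported here, and like genes the 3 nearest to Pecam1, Cdh5 and Cldn5. Alternatives included DESeq2 1.42.0, limma 3.58.1, other scalings and filters, covariates, leaving out samples and a replicate block. The fits on group alone and with the hair score were also run on simulated counts with 200 changed genes. Those counts were drawn gene by gene without differences in hair content, so they do not test the fits in that respect. No library was a copy of another: the chi-square per degree of freedom over pairs of samples was at least 3.43.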

Additional observations from a re-analysis of the deposited data

How the results depend on the processing

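Across 30 alternatives, 26 called 0 genes over the whole table, DESeq2 called 83, quality-weighted limma-voom called 2093, and leaving out a sample gave 0 to 3. The values of 3 and 1 came without negative replicate 7 and without negative replicate 4. The fit with a replicate block called 0 genes. Samples sharing a number had correlations of -0.14 to 0.34 between their deviations from the group means. Of the positive replicates, 0 of 4 correlated best with their own number. These deviations still held the differences in hair content, so the check cannot decide whether the numbers pair the samples. For the 8 genes, 226 of 240 values kept direction and side of the threshold. The 8 that passed the threshold were those of quality-weighted limma-voom. The 6 that changed sign came with the endothelial score or among hair-poor samples alone. With the endothelial score they were -0.0072 for Cldn5 and 0.11 for Cd99l2. Among hair-poor samples alone they were -0.081 for Cldn5, 0.015 for F11r, -0.059 for Jam2 and 0.063 for Cd99l2. That fit has fewer samples and also no hair-rich ones, which cannot be told apart here. The cause of the sign changes was not tested. Leaving out each sample gave 0.46 to 0.64 for Pecam1, 0.30 to 0.42 for Cdh5, 0.21 to 0.45 for Cldn5, 0.42 to 0.64 for Esam, -0.37 to -0.25 for F11r, 0.36 to 0.61 for Jam2, 0.42 to 0.64 for Jam3 and -0.61 to -0.36 for Cd99l2. Cldn5 and Jam3 had the fewest reads of the 8.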
